A study of Homo sapiens with 8 samples.

Results

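Chromatin that was open early in the response to the cytokine TGFβ1 was set against chromatin that was open late, by comparing the ATAC-seq peaks found after 6 h of TGFβ1 with those found after 72 h. ATAC-seq uses a transposase that inserts sequencing adapters where nucleosomes leave the DNA free, so that a peak marks an accessible stretch of the genome. The cells were MCF10A, an established line of immortalized, non-tumorigenic human mammary epithelial cells with basal features, of wild-type genotype. Both groups received recombinant human TGFβ1 at 5 ng/ml, for 6 h or for 72 h, in a medium with horse serum, EGF, hydrocortisone, cholera toxin and insulin. Each group comprised 2 libraries, and the authors called peaks on both libraries of a condition together, so that there was 1 list per condition and no value per replicate. No spread between replicates, test or p-value could therefore be obtained, and all differences below are between 1 list and another. By their labels the control cells were sampled at 0 h, while the description of the experiment has them kept in solvent for 72 h, so the solvent list is a control and not necessarily the start of the time course. The solvent and 24 h lists did not enter the comparison and serve only to describe its regions. In a population of cells, more cells with an open site and a site that is open for longer in each cell cannot be told apart.

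The 6 h list held 107656 peaks and the 72 h list 116720. Peaks that shared at least 1 bp were merged into 122522 regions, out of 126658 regions obtained from all 4 lists of the series. The measure was the AUC, the area under the peak caller's significance curve, summed over the peaks of a list in each region. It grows with the width of a peak, its height and the sequencing depth. A peak was present in both lists in 98802 regions, and for these the log2 ratio of the 72 h AUC to the 6 h AUC was calculated. The ratio was centred on its median of -0.16 over the 36553 shared regions within 3 kb of a transcriptional start site (TSS), called proximal, so that a value of 0 means that a region changed like the typical promoter. All other regions were called distal. The 6 h peaks covered 58.4 Mb with a median AUC of 829 and the 72 h peaks 58.9 Mb with a median of 791, and the read depth behind either list is unknown.

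TGFβ1 binds a pair of receptor kinases at the cell surface that phosphorylate SMAD2 and SMAD3, which enter the nucleus with SMAD4 and bind DNA together with other transcription factors. AP-1 factors, dimers of JUN and FOS proteins, are frequent partners. In mammary epithelial cells sustained TGFβ1 drives an epithelial-mesenchymal transition (EMT), in which cell-cell junctions are dissolved and genes of the extracellular matrix, of migration and of contraction are switched on. Immediate-early genes such as FOS and EGR1 respond to growth factors within minutes and are switched off again soon after.

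The sequences at the centres of changed regions are given first for 6 of the named regions, because they carry the short motifs that are counted further below. Each window reaches 100 bp to either side of the summit of the stronger peak on the plus strand of GRCh38 and is named after the protein-coding gene with the nearest TSS. Capitals mark matches, on either strand, to the motifs of AP-1 (TGAGTCA), TEAD (CATTCCA), SMAD factors (the short site AGTCTG), NF-kB (GGGNNTTCC) and KLF factors (GGGNGNGGC).
RFLNA intron, higher at 72 h, chr12:124172813-124173013: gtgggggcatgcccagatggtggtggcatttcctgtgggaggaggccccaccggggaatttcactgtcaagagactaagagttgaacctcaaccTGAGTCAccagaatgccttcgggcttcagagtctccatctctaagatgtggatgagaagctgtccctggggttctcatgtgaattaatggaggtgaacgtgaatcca
PLD5 region, 72 h list only, chr1:242764192-242764392: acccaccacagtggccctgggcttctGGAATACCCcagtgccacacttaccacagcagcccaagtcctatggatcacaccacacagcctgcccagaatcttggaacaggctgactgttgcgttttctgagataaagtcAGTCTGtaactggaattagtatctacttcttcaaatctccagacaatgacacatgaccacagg
HHAT intron, 72 h list only, chr1:210439327-210439527: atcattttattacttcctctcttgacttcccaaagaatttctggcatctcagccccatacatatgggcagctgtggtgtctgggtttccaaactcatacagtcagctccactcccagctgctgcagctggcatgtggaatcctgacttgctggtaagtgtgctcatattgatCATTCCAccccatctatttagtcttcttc
EGR1 region, higher at 6 h, chr5:138470435-138470635: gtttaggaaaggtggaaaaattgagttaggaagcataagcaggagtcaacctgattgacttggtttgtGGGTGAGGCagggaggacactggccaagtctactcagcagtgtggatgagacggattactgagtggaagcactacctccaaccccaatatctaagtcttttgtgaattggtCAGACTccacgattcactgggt
AFDN region, higher at 6 h, chr6:167760935-167761135: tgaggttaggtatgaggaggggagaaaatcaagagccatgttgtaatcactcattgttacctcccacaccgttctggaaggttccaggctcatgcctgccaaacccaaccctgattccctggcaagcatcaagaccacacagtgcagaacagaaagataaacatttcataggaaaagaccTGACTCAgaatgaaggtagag
FOS region, 6 h list only, chr14:75283661-75283861: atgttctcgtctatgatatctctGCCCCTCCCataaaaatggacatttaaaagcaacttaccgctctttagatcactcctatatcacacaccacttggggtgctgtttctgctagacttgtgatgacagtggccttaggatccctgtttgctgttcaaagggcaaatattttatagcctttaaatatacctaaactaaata

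Of the 3 windows that were higher at 72 h, the one in RFLNA held an AP-1 motif. The PLD5 window held a SMAD site and an NF-kB motif, and the HHAT window a TEAD motif. Among the windows that were higher at 6 h, those near EGR1 and FOS held a KLF motif. The EGR1 window also had a SMAD site, and the AFDN window held an AP-1 motif. Windows over exons or without any searched motif were passed over, so each window shown holds a match by choice. Some named regions had none, such as those near WDR70 and ASPG. A match describes the sequence and does not show that a factor was bound.

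More chromatin was higher late than early. Among shared regions 5662 had an AUC at least 2-fold higher at 72 h after centring, which is 5.73% of those compared, whereas 885 (0.896%) were at least 2-fold higher at 6 h. On the AUC per base these numbers were 1784 and 346. The 72 h list alone held 15603 regions, 12.7% of all, and the 6 h list alone 8117, or 6.62%. The latter number rose to 12394 when peaks had to overlap over at least 50% of both, and with a minimum AUC of 400 the lists alone held 4220 and 1160. Most of these were weak, with median AUCs of 304 and 268 above the authors' lower limit of 200. Late regions were therefore defined as the shared regions that were at least 2-fold higher at 72 h together with those of an AUC of at least 400 in the 72 h list alone, and early regions as the mirror image. This gave 9882 late regions (8.07% of all) and 2045 early regions (1.67%). A further 52835 shared regions lay within 0.25 of 0 on the log2 scale and are called stable.

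Relative to promoters, distal regions shifted toward 72 h. Before centring, the median log2 ratio was -0.16 over proximal and -0.067 over all shared regions. Whether promoters fell or distal regions rose was not tested. The median centred log2 ratio was 0.17 over 62249 distal shared regions, against 0 by construction over the proximal ones, and 70.4% of the distal regions lay above 0. At least 2-fold higher at 72 h were 7.35% of distal and 2.97% of proximal shared regions, while for 6 h the shares were 0.855% and 0.966%. The median was higher with greater distance to the nearest TSS of any gene, from -0.03 within 1 kb to 0.14 between 3 and 10 kb, 0.21 between 30 and 100 kb and 0.29 beyond 100 kb. Weak regions varied more in both directions, but the distal excess was present in each of 4 equal bins of mean AUC, with gaps of 0.16, 0.15, 0.12 and 0.12 from the weakest to the strongest. Division of the AUC by the bases covered lowered the gap to 0.10.

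**Figure D1:**
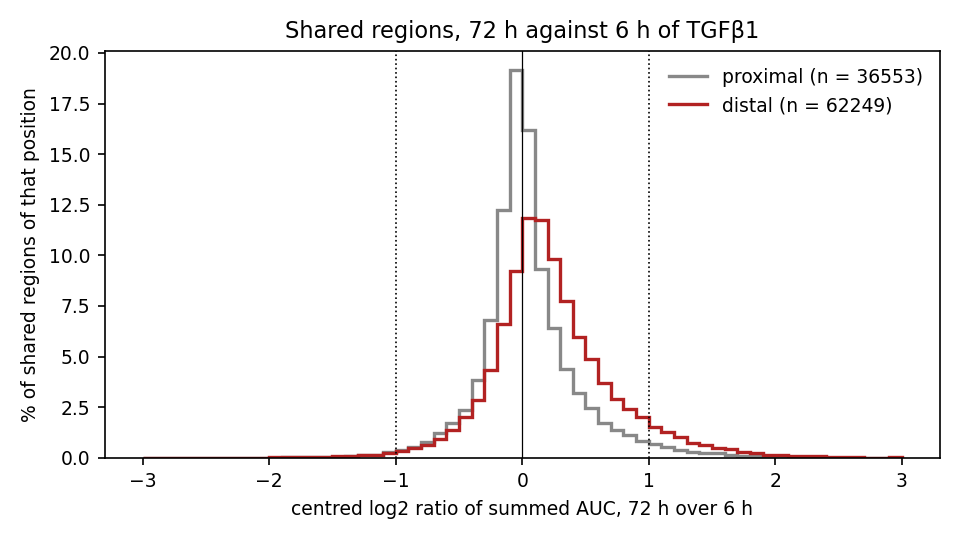
Share of proximal (grey) and distal (red) shared regions, in percent on the y axis, by the centred log2 ratio of summed AUC, 72 h over 6 h, in steps of 0.1 on the x axis. Dotted lines mark a 2-fold difference, and the distal curve lies to the right of the proximal one, with a median of 0.17 against 0.

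Late and early regions also differed in where they lay. Of the late regions 81.8% were distal, compared with 61.7% of the early regions and 65.3% of all. The median distance of late regions to the TSS of a protein-coding gene was 37.9 kb, and 30.6% (95% Wilson interval 29.7 to 31.6) lay more than 100 kb from one. For early regions the median was 11.2 kb and the share 14.1% (12.7 to 15.7), and for stable regions 9.89 kb and 13.1%. The late regions were poorer in G and C, with a median of 44.8% in the window around the summit, against 49.8% in early and 51.7% in stable regions. By annotation 57.1% of late regions lay in introns, 37.8% between genes and 5.08% in exons, and of the early regions 57.7%, 31.0% and 11.3%. Wilson intervals cover counting error only and not the variation between replicates.

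Late and early regions also differed in the lists that were not part of the comparison. The solvent list was shorter than the 6 h list, with 86209 peaks over 44.8 Mb against 107656 over 58.4 Mb. Late regions are by definition absent or lower at 6 h and early regions higher there, so neither solvent share is independent of the rule. Of the regions of the 6 h list alone, 30.1% had a solvent peak, and of those with an AUC of at least 400, 77.2%. Only 12.9% (12.2 to 13.5) of the late regions had a peak in the solvent list, whereas 84.4% (82.8 to 85.9) of the early regions had one, compared with 91.4% of the stable regions and 67.3% of all regions. A peak at 24 h was found in 93.3% of late and 87.6% of early regions. Thus 7958 late regions, 80.5% of them, had no peak with solvent, were present at 24 h and were higher at 72 h than at 6 h. The most frequent pattern among early regions was another one: 1533 of them (74.96%) had peaks both with solvent and at 24 h. Of the early regions without a solvent peak, 258 had a peak at 24 h and 61 had none in either of these lists. The weak regions held back by the AUC limit differed in this respect, as 2575 (31.7%) of all 8117 regions of the 6 h list alone had neither a solvent nor a 24 h peak.

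**Figure D2:**
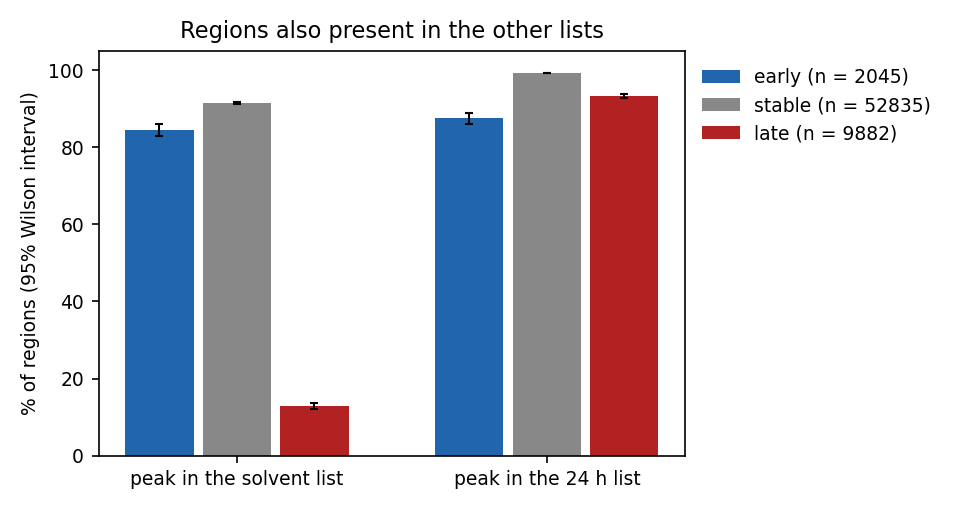
Percentage of early (blue), stable (grey) and late (red) regions with a peak in the solvent list and in the 24 h list, with 95% Wilson intervals as error bars. Late regions rarely had a solvent peak (12.9%), whereas early regions mostly did (84.4%), and most regions of all classes had a peak at 24 h.

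At 24 h most shared regions of either class lay on the same side of the centre as at 72 h. Those at least 2-fold higher at 72 h (late-higher) were nearer to their 72 h value than those higher at 6 h (early-higher). The 24 h list was the longest, with 118433 peaks, and its part in this was not tested. In the 5614 late-higher shared regions with a peak at all 3 times, the median AUC went from 332 (6 h) over 674 (24 h) to 814 (72 h). Of these, 2492 (44.4%, 43.1 to 45.7) were already at least 2-fold above their 6 h value at 24 h, and 98.8% had moved to the same side of the centre. In the 868 corresponding early-higher regions the median went from 869 at 6 h to 602 at 24 h and 299 at 72 h, and 104 (11.98%, 9.99 to 14.3) had reached a 2-fold difference by 24 h. Stable regions stood at 1478, 1472 and 1354. The AUC grows with width and height, so regions picked by its ratio must differ in width, height or both. The following values describe this and are no independent result. The late-higher regions had a median width of 242 bp at 6 h and 371 bp at 72 h, and a median −log10 p at the summit of 6.38 and 8.30. In early-higher regions the width went from 507 to 294 bp and the −log10 p from 8.08 to 6.11. The median log2 ratio of the AUC per base, not centred, was 0.73 in late-higher and -0.81 in early-higher regions.

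Few strong shared regions were in either class. The median larger AUC was 810 in late-higher and 863 in early-higher regions, against 1470 in stable regions and 807 over all regions. Of 26204 shared regions whose larger AUC was at least 2000, only 233 were at least 2-fold higher at 72 h and 59 at 6 h. The upper quartile of the centred log2 ratio over distal shared regions was 0.47.

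Short motifs that the classification had not used differed strongly between late and early distal regions. AP-1 is the family of JUN and FOS proteins, and its motif was found in 3368 of 8088 late distal regions, or 41.6% (40.6 to 42.7), but in 164 of 1261 early ones, or 13.0% (11.3 to 15.0). The share among stable distal regions was 38.2% and that among all distal regions 38.03%. The early share was far below this background and the late share slightly above it. Stable regions were stronger, and their AP-1 share moved with the AUC. Within 4 equal bins of all distal regions by their larger AUC, the second weakest held 4580 of the late distal regions, and there the motif was found in 42.7% of late, 29.2% of stable and 14.1% of early regions, in the third in 40.6%, 38.2% and 11.7%, and in the strongest in 38.4%, 45.4% and 9.62%. Across the whole range of the log2 ratio the AP-1 share of distal shared regions went from 15.6% in those at least 2-fold higher at 6 h to 38.2% in stable ones and 45.8% between 0.5 and 1, and was 43.9% beyond 1. Among proximal regions 39.3% of the late, 18.4% of the stable and 8.16% of the early ones held the motif. When a peak had to overlap its partner over at least 50% of both, the AP-1 difference between late and early distal regions was 13.3 percentage points instead of 28.6.

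RUNX and TEAD motifs followed the late regions. RUNX proteins are partners of SMADs and AP-1, and their motif (TGTGGTT) was present in 13.8% (13.0 to 14.5) of late, 5.76% of stable and 4.68% (3.64 to 5.99) of early distal regions, with 7.53% over all distal regions. TEAD factors are the DNA-binding partners of YAP and TAZ, and the shares of their motif were 9.38%, 5.48% and 4.04%, with 6.45% over all distal regions. The short SMAD site AGTCTG, which is frequent, differed less, with 16.4%, 14.2% and 13.8% and a background of 14.5%. The palindrome GTCTAGAC, formed by a pair of SMAD sites, was rare but showed the same order, at 0.618% (0.469 to 0.814) of late, 0.242% of stable and 0.0793% (0.014 to 0.448) of early distal regions, with 0.320% over all distal regions. The early share rests on 1 region, and its interval includes the stable share. ETS motifs (CNGGAAGT) were found in 5.38%, 4.29% and 3.57%, with 4.62% over all distal regions.

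Another set of motifs was frequent in early regions. C/EBP factors act in epithelial differentiation and inflammation, and their motif (TTNNGCAA) was found in 24.7% (22.4 to 27.1) of early, 15.0% of stable and 11.5% (10.8 to 12.2) of late distal regions, against 14.4% over all distal regions. The E-box CACCTG, which is the site of SNAIL and ZEB proteins, was present in 27.0% (24.6 to 29.5), 19.5% and 12.2% (11.5 to 12.9), with 17.6% over all distal regions. For the E-box the difference of -14.7 percentage points between late and early shrank to -8.56 with the 50% overlap and grew to -22.6 when the whole region was searched. KLF motifs were found in 15.7% of early, 7.92% of stable and 2.84% of late distal regions, with 6.44% over all distal regions. The ATF4 motif (TGATGCAA) had shares of 4.44%, 1.72% and 0.915%, with 1.59% over all distal regions. FOX motifs (TGTTTAC) had 5.47%, 3.97% and 3.25%, with 3.87% over all distal regions. The site of CTCF, which insulates chromatin domains, was found in 5.00% of stable distal regions and was rare in the changed ones, with 0.173% of late and 0.555% of early, and 3.13% over all distal regions.

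**Figure D3:**
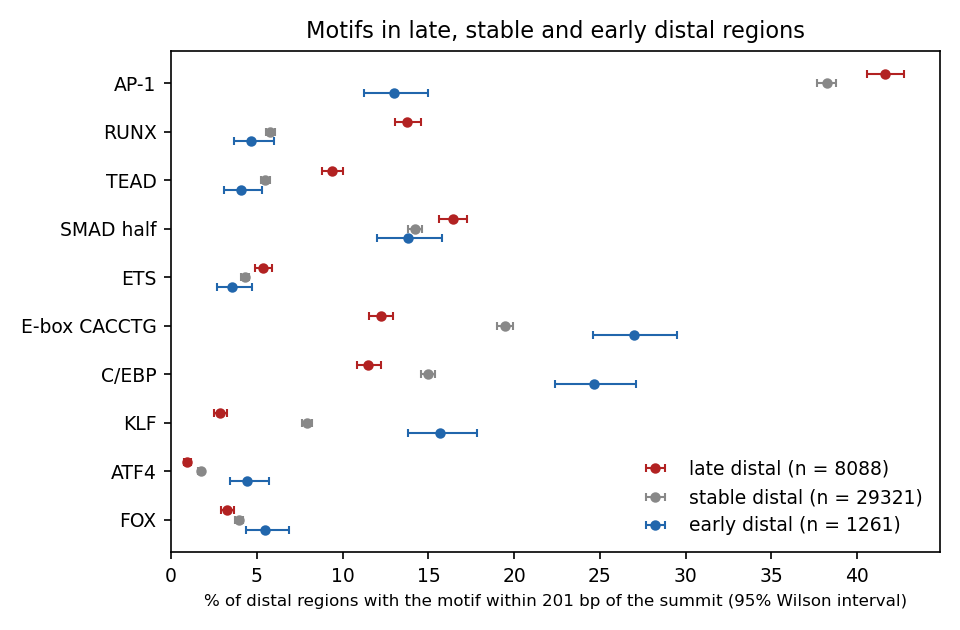
Percentage of late (red, n = 8088), stable (grey, n = 29321) and early (blue, n = 1261) distal regions that hold each motif within 100 bp of the summit, with 95% Wilson intervals. AP-1, RUNX and TEAD motifs are more frequent in late than in early regions, and E-box, C/EBP, KLF and ATF4 motifs more frequent in early ones.

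Base composition moved with these classes, so the shares were also compared within bands of GC content. In windows with less than 45% GC the AP-1 motif was present in 39.9% of late and 17.2% of early distal regions, from 45 to 55% in 43.3% and 12.9%, and above in 47.7% and 7.90%. The stable regions of these bands had 45.5%, 37.7% and 26.2%, so that late regions were below the stable ones at low GC and above them in the other bands. The RUNX motif was found in 15.2%, 12.4% and 9.59% of late and in 4.61%, 5.00% and 4.26% of early regions. For C/EBP the late shares were 13.2%, 10.1% and 4.32% and the early shares 38.8%, 23.3% and 9.12%. KLF and E-box motifs were likewise more frequent in early regions within each band. Early distal regions that had no solvent peak held AP-1 motifs in 21.2% (15.9 to 27.8) of cases, and those with a solvent peak in 11.6% (9.87 to 13.7). For late regions these shares were 41.5% and 42.9%.

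Of 21 motifs searched, the others were rare or differed little. NF-kB motifs were found in 3.61% of late and 2.62% of early distal regions, against 3.08% over all distal regions. TCF/LEF motifs (ATCAAAG) were found in 3.05% and 2.78%, against 2.55% over all distal regions. The sites of the glucocorticoid receptor, SRF, STAT, SOX, GRHL, p63 and the CRE were each present in under 1.2% of distal regions of either class.

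Single regions with large differences are described next by their AUC in each list. Among shared regions with an AUC of at least 2000, an intronic region of RFLNA, a regulator of filamin (chr12:124172245-124173200), had no solvent peak and went from 219 at 6 h to 1029 at 24 h and 2182 at 72 h, a centred log2 ratio of 3.48. A region between genes near WDR70 (chr5:37771259-37772357) had no solvent peak and stood at 497, 2316 and 3820 after 6, 24 and 72 h, a log2 ratio of 3.10. Other regions of this kind were near CD200 (chr3:112390778-112391920), with a solvent AUC of 212 and 246, 1377 and 2123 at the 3 times, and near NOCT (chr4:138875776-138876574), with no solvent peak and 315, 1772 and 2043. The 4 regions given here were distal, and all were above their 6 h value at 24 h.

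Among regions of the 72 h list alone, the strongest lay 239595 bp from the TSS of PLD5 (chr1:242763736-242764539), where the AUC was 1417 at 24 h and 2975 at 72 h. A region 156 bp from a TSS of HHAT, which attaches palmitate to hedgehog proteins (chr1:210438807-210439728), had 1026 at 24 h and 2789 at 72 h. In PLAU, which encodes the urokinase that activates plasminogen at the surface of migrating cells, a region over an exon (chr10:73912619-73914872) had 2180 and 2622. The regions near LACTB (chr15:63107904-63108533) and LIPF (chr10:88689351-88690230) went from 990 to 2215 and from 1737 to 2203. None of these 5 had a peak with solvent or at 6 h, and all had one at 24 h.

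Most of the named regions that were higher at 6 h had a similar AUC with solvent. The largest ratio was found 1232 bp past the end of EGR1, an immediate-early zinc finger factor, in a region 5056 bp from its TSS (chr5:138469543-138471198). The AUC there was 3367 with solvent and 3426, 1904 and 560 after 6, 24 and 72 h, a centred log2 ratio of -2.45. The promoter of CHI3L1, a secreted chitinase-like protein (chr1:203186198-203187284), went from 2293 at 6 h to 940 at 24 h and 389 at 72 h, with 2436 in solvent, a log2 ratio of -2.40. A region between genes near AFDN (chr6:167760893-167761590) had 2196 with solvent and 2349, 1424 and 458 at the 3 times, a log2 ratio of -2.20. Those near LBR (chr1:225463014-225464122) and CDKN2AIPNL (chr5:134458125-134459188) had solvent AUCs of 2023 and 1251, went from 2386 to 581 and from 2242 to 550 between 6 and 72 h, and had log2 ratios of -1.88 and -1.87. Part of these differences lay in width, since the log2 ratio of the AUC per base was -0.61 for CHI3L1.

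The strongest region of the 6 h list alone lay 1531 bp past the end of FOS, which encodes a subunit of AP-1 (chr14:75282683-75284458). Its AUC was 2158 with solvent and 2951 at 6 h, and there was no peak at 24 h or 72 h. A region of this kind near ENSG00000188897 (chr16:11534118-11534639) had 1343 with solvent, 1645 at 6 h and 1205 at 24 h. An intronic region of ASPG (chr14:104100374-104101311) had 1570, 1488 and 723, and one near GPR37L1 (chr1:202084751-202085695) 1212, 1341 and 491. The 4 regions given here had a solvent peak, and in 3 of them a weaker peak remained at 24 h.

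**Figure D4:**
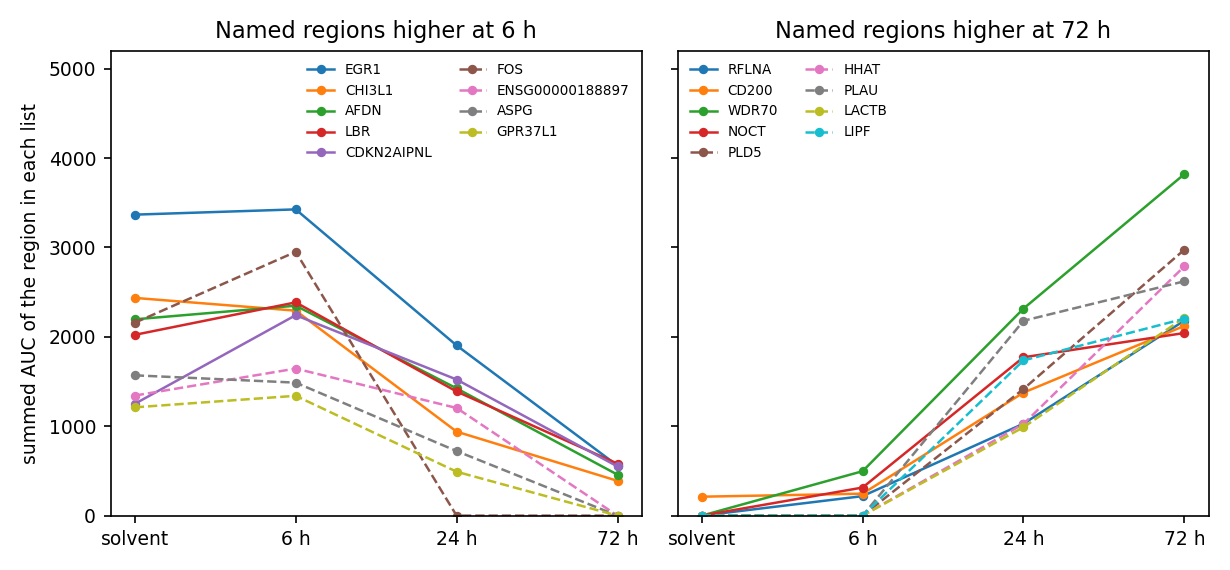
Summed AUC (y axis) of 9 named regions higher at 6 h (left) and 9 higher at 72 h (right) in the solvent, 6 h, 24 h and 72 h lists, with 1 line per region named after the nearest protein-coding gene and dashed lines for regions present in only 1 of the 6 h and 72 h lists. The regions on the left have peaks with solvent and at 6 h and are lower at 24 h and 72 h, and those on the right are at 497 or below at 6 h and higher at 24 h and 72 h.

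Regions were assigned to the protein-coding gene with the nearest TSS within 100 kb, and the AUC was summed per gene. Of 17004 genes with a region, 4305 had at least 1 late and 1529 at least 1 early region, and 535 had both. More late than early regions were found at 3971 genes (23.4%) and more early than late at 1047 (6.16%). At least 3 late and no early regions were found at 492 genes, compared with 14 genes for the reverse. On the gene-level log2 ratio, 1290 of 16575 genes (7.78%) reached 0.5 and 264 (1.59%) were at -0.5 or below. The median over all genes was 0.04, and 9971 genes lay above 0, since 0 is the centre of the promoters. Gene-level ratios mix new peaks, wider peaks and higher peaks. Most shrank where the AUC was divided by the bases covered, and 65 of 112 named genes kept their sign. Among genes given below with a positive ratio, the sign turned for POSTN, FN1, CXCL1, MACROD2, IL1A, LAMA3, FZD2, SNAI3, SNAI2 and MT2A, among others, and among those with a negative one for OVOL2, TJP3, NTSR1, ACTB and FLNA, among others.

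Genes with the largest excess of late regions were mostly long, and several encode proteins of adhesion, the matrix or the cytoskeleton. TGFBI encodes a secreted matrix protein named for its induction by TGFβ, and its locus (chr5:136028988-136063818) had 13 late and 2 early regions among 34. The AUC assigned to it was 74094 at 6 h and 119990 at 72 h, a centred log2 ratio of 0.86, and the bases covered grew from 29.96 to 49.98 kb, and the log2 ratio per base was 0.05. A single intronic region of TGFBI (chr5:136035920-136043328) had an AUC of 2606 with solvent and 7154, 18996 and 19680 at the 3 times. A region 12729 bp from a TSS of the same gene (chr5:136073108-136078629) had no peak with solvent and stood at 2297, 6122 and 9564. The region over the start of the gene (chr5:136028067-136030074) had 4481 with solvent and 6225, 6871 and 6993, a log2 ratio of 0.33. The regions within 1 kb of any TSS of TGFBI together had 15537 at 6 h and 27608 at 72 h, a log2 ratio of 0.99.

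The other genes of this group were DGKI, a diacylglycerol kinase (10 late regions of 32, log2 ratio 0.73), TENM2, a teneurin adhesion receptor (11 of 58, 0.43), PALLD, the actin-bundling protein palladin (11 of 59, 0.38), and NAV1, a microtubule-binding protein (10 of 39, 0.38). LAMA3, a laminin alpha chain of the epithelial basement membrane, had 9 late regions of 42 and a log2 ratio of 0.39. ALDH1A2, which makes retinoic acid, had 10 of 31 and 0.49, and the proteoglycan gene SPOCK1 9 of 42 and 0.30. MACROD2 (9 of 30, 0.50) and PRUNE2 (9 of 26, 0.44) complete the 10 named, and an eleventh gene with an equal excess is left out. Together these genes had 3 early regions outside TGFBI, 1 each at TENM2, PALLD and ALDH1A2. The number of regions per gene moved with this ranking: the median was 36.5 for these 10 genes and 4 for all genes, and the median gene length was 449 kb against 32.0 kb.

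The early excess was small at every gene, and 16 genes had an excess of 3 or more, of which 10 are named. ZMIZ1, a transcriptional coregulator that also binds SMADs, had 5 early and no late regions among 44 and a gene-level log2 ratio of -0.09. ABLIM1, an actin-binding LIM protein, and ITPR1, a calcium channel of the endoplasmic reticulum, had 4 early and 1 late regions each. Other genes had 3 early and no late regions, and those of the 10 named were GSE1 (log2 ratio -0.20), GTF2IRD1 (-0.22), ACTB (-0.30), SLC45A4 (-0.23), BAHCC1 (-0.17), PPARGC1B (-0.15) and NTSR1 (-0.40). At NTSR1, the neurotensin receptor, the AUC near the promoter was 2215 at 6 h and 347 at 72 h, a log2 ratio of -2.51. At ACTB, which encodes cytoplasmic actin, the promoter was near the centre with -0.09 and the 3 early regions lay at or past the end of the gene. One of them (chr7:5524665-5526798) had 1320 with solvent and 3405, 2448 and 942 at the 3 times. These genes had a median of 22.5 regions and a median length of 137 kb.

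The genes discussed in the study as markers or regulators of EMT differed in their chromatin. FN1 encodes fibronectin, a mesenchymal matrix protein, and had 10 regions with a peak at 6 h and 21 at 72 h, with 3 late and no early regions. Its summed AUC went from 13948 to 22466, a log2 ratio of 0.85, while the bases covered grew from 5.57 to 10.8 kb and the ratio per base was -0.18. The region at the FN1 promoter (chr2:215435589-215437001) had 882 with solvent and 2782, 3957 and 4268 at the 3 times. CDH2, which encodes N-cadherin, went from 10621 to 14810, a log2 ratio of 0.64. Its promoter was near the centre (0.15), and an intronic region (chr18:28114997-28115590) carried 347, 961, 1792 and 2198 from solvent to 72 h. Among transcription factors, SNAI2 had 0.27 and ZEB1 0.22, with promoters at 0.22 and -0.19, and SNAI1 had neither late nor early regions. JUNB, an AP-1 member on which the study centred, had 17192 at 6 h and 14286 at 72 h, a log2 ratio of -0.11, and JUN 45176 and 40126, a log2 ratio of -0.01.

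The epithelial genes of this group changed little at the level of the whole locus. CDH1, encoding E-cadherin, had a log2 ratio of -0.03 with 1 early region of 13, and EPCAM, an epithelial adhesion molecule, had 0.10 with a promoter at -0.24. RBM47, an RNA-binding protein, had 3 early and 1 late regions of 23 and a log2 ratio of -0.02. One of its introns held a region (chr4:40626383-40627205) that had no peak with solvent and AUCs of 778, 285 and 215 at the 3 times.

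In the 21 gene lists, which hold 312 genes, the matrix genes had the highest median. Under other settings the cytokines were highest with a minimum AUC of 400 or with lists of equal length, and the cell-cycle genes were highest on the AUC per base. All 21 genes of the mesenchymal matrix list were above 0, where 9971 of 16575 genes were. Their median was 0.29, and 7 of them reached 0.5, or 1 in 3 where 7.78% of all genes did. These were DCN (1.39), MFAP5 (1.35), POSTN (1.16), FN1, CDH2, LUM (0.62) and FBN1 (0.51), and they encode small proteoglycans, microfibril proteins, periostin and fibrillin besides fibronectin and N-cadherin. At DCN the AUC was 1235 at 6 h and 2896 at 72 h, and at POSTN 2291 and 4582, which are low levels, with no peak within 1 kb of a TSS of DCN or LUM in either list. VCAN (0.01) and CCN2 (0.07) were lowest. Of 302 regions at these genes 42 were late (13.9%) and 4 early, where 6.83% of all regions assigned to genes were late. The collagens resembled them, with a median of 0.26 and 25 late and 1 early of 179 regions. Of 14 collagens 3 reached 0.5, namely COL3A1 (0.85), COL1A2 (0.71) and COL6A2 (0.61), and 12 were above 0, the lowest being COL16A1 (-0.06) and COL7A1 (-0.05). On the AUC per base the medians of the matrix and collagen lists were 0.06 and 0.02.

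Proteases and cytokines followed. Of 17 matrix proteases and inhibitors, 4 reached 0.5, where 7.78% of all genes did: ADAMTS12 (2.06, from 707 to 2631), PLAU (0.59, from 32438 to 43726), ADAMTS6 (0.59) and ADAM12 (0.51), with a median of 0.20. TIMP1, an inhibitor, and MMP1 were lowest with -0.13 and -0.07. Among 11 cytokines the median was 0.28 and 10 were above 0, where 9971 of 16575 genes were. CXCL1 (0.58) and IL1A (0.48) were highest and CCL20 lowest. Yet 1 reached 0.5 and the regions of cytokine genes were late in 6.67% of cases, close to the background. The cytokine median was 0.04 on the AUC per base.

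Lists of adhesion and contraction had smaller positive medians, and their direction depended on the processing. In the list of basal keratins and hemidesmosome genes the median was 0.13, or -0.04 on the AUC per base, and 1 of 13 genes reached 0.5, where 7.78% of all genes did. LAMB3, a laminin beta chain, had the highest value (0.57, from 72248 to 96032), and LAMA3 had 0.39, or -0.15 per base. The keratins KRT15 (-0.46) and KRT17 (-0.21) were the lowest. Of 225 regions of this list 24 were late (10.7%, against 6.83% of all regions assigned to genes) and 3 early (1.33%, against 1.75%). The 11 integrins, receptors for matrix, were all slightly above 0, where 9971 of 16575 genes were. Their median was 0.12, the highest value 0.26 (ITGA1) and the lowest 0.03 (ITGB5). Of their 165 regions 6 were late (3.64%, below the 6.83% of all regions). Actin and contractile genes had a median of 0.08, which fell below 0 (-0.02) when all shared regions were used for centring, with TAGLN (0.61) and PALLD highest and FLNA (-0.23) and CNN2 (-0.18) lowest.

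The chromatin of the TGFβ pathway genes differed little between 6 h and 72 h. In the list of 23 genes of SMAD feedback and TGFβ signaling the median was 0.07, and only TGFBI reached 0.5, where 7.78% of all genes did. SMAD2 had 0.25, and SMAD7, the inhibitory SMAD, had 0.02 with 1 late region, whereas TGFBR3 and the repressor SKI both had -0.06. Of 393 regions 32 were late (8.14%) and 7 early (1.78%), against 6.83% and 1.75% of all regions. Among 10 EMT transcription factors PRRX1 reached 0.5 with 0.76 (from 7592 to 11482), while its promoter went from 976 to 594. SNAI3 had 0.31, and SOX4 (-0.06) and TWIST2 (-0.03) were lowest, with a list median of 0.10. A list of RUNX, ETS and other factors was drawn up as candidates for late change, so its shares are no independent result. Its median was 0.11, with RUNX3 (0.54) and ETS1 (0.44, 6 late regions of 32) highest and RUNX2 (-0.15) and TRPS1 (-0.14) lowest. RUNX1 had 6 late regions as well and a log2 ratio of 0.23. Of the 362 regions of this list 38 were late (10.5%) and 5 early (1.38%). WNT ligands and modulators had a median of 0.15, from WNT10A (-0.26) and FZD7 (-0.16) to FZD2 (0.33) and WNT5A (0.45), and YAP and TEAD targets 0.08, from AJUBA (-0.19) and AXL to F3 (0.32) and ANKRD1 (0.33).

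**Figure D5:**
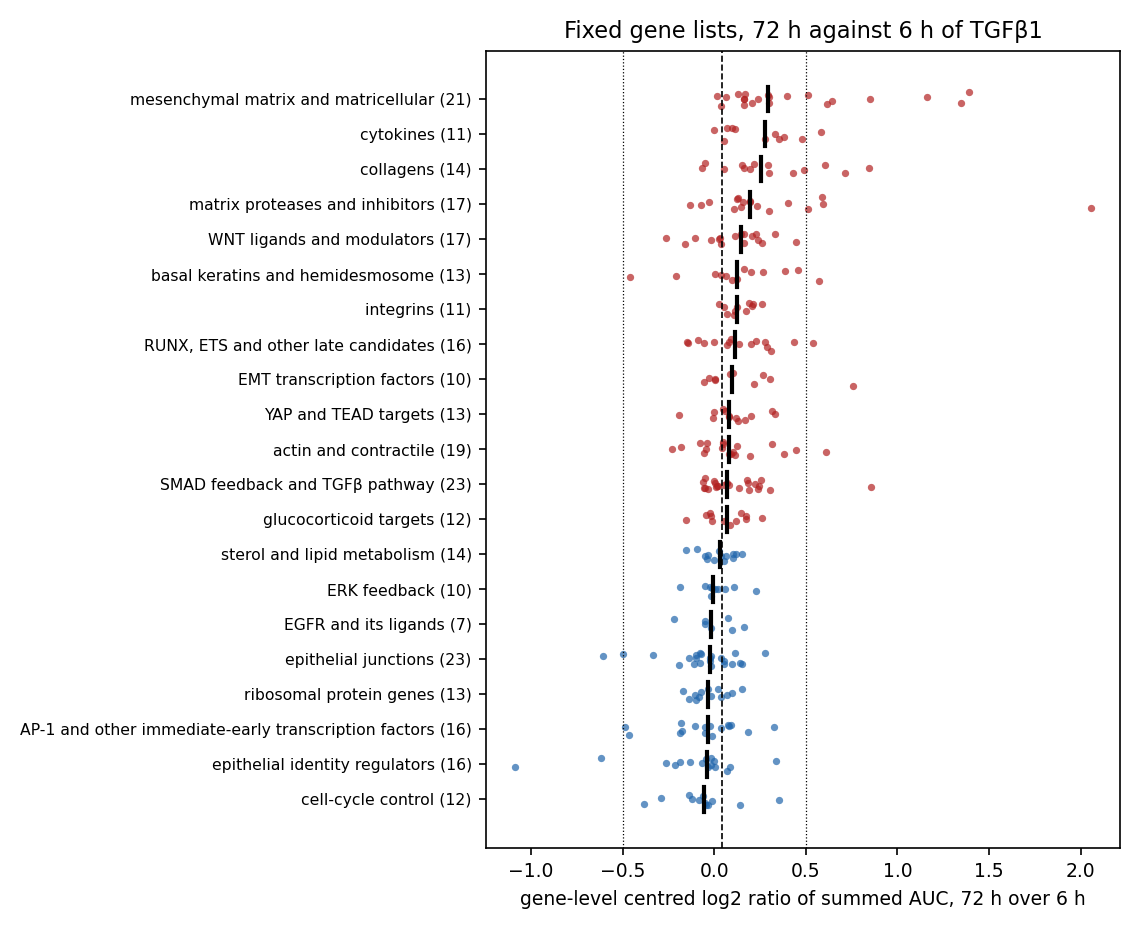
Gene-level centred log2 ratio of summed AUC, 72 h over 6 h (x axis), with 1 point per gene for the 21 gene lists and the number of measured genes in parentheses. Thick bars are list medians, the dashed line is the median of all genes (0.04), dotted lines mark -0.5 and 0.5, and red lists lie above and blue lists below the median of all genes. The matrix list is highest with 0.29, and the cell-cycle list lowest with -0.05.

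The lists with medians below 0 were those of epithelial identity, junctions, immediate-early factors, ERK feedback and EGFR ligands, together with those of cell-cycle and ribosomal protein genes. The cell-cycle list was the lowest, so that none of the other lists lay below it. It was not set up as a neutral reference. Among 16 epithelial identity regulators the median was -0.04 and 4 were above 0, where 9971 of 16575 genes were. OVOL2 (-1.09, from 2866 to 1207) and OVOL1 (-0.62, from 4492 to 2614), zinc finger repressors that maintain the epithelial state, were at or below -0.5, where 1.59% of all genes were. TP63, a master regulator of basal epithelial cells, had 0.09. Of 222 regions of the identity list 10 were late and 10 early (4.50% each), against 6.83% and 1.75% of all regions assigned to genes. Among 23 epithelial junction genes the median was -0.03, but 0.05 on the AUC per base, above the 0.02 of all genes. CLDN7, a tight junction claudin, had -0.61 (from 6911 to 4054) and TJP3 -0.50, while TJP1 (0.28, with 5 late regions) and CLDN1 (0.15) were the highest. Of 269 regions 11 were late (4.09%) and 8 early (2.97%), against 6.83% and 1.75% of all regions.

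In the list of AP-1 and other immediate-early factors the median was -0.03, and none of 16 genes reached 0.5 in either direction. Of all genes 7.78% were at 0.5 or above and 1.59% at -0.5 or below, so few calls would be found among 16 genes at these shares. FOSB (-0.49, from 11201 to 7153) and FOS (-0.47, from 58658 to 37963) were lowest, and the FOS promoter region accounted for 16395 at 6 h and 10444 at 72 h. IER3 (0.33) and BATF3 (0.18) were highest. In ERK feedback genes the median was -0.004, with DUSP10 (0.23) highest and SPRY2 (-0.19) lowest, and in EGFR and its ligands -0.02, with AREG (0.17) highest and HBEGF (-0.22) lowest. Ribosomal protein genes had a median of -0.03 and cell-cycle genes -0.05, and among the latter CDKN1C, a cell-cycle inhibitor, had -0.29 and CCND2 0.35. Glucocorticoid targets had 0.07, from TSC22D3 (-0.15) to MT2A (0.26), and sterol and lipid genes 0.03, from SREBF1 (-0.15) to INSIG1 (0.15). Of the listed genes, 4 had no region assigned. Since these medians differ from 0 and from each other by little, their order depends on the processing. Centring on all shared regions lowers every gene-level value by 0.09 and takes the medians of the SMAD, actin, YAP and TEAD, glucocorticoid and sterol lists below 0.

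The identity of the cells was checked by peaks within 1 kb of a TSS of marker genes. All 9 markers of basal mammary epithelium, among them KRT5, KRT14, TP63 and ITGB4, had a peak in both lists. Of 4 fibroblast markers PDGFRA and PDGFRB had a peak at both times and DCN and LUM at neither. Of 4 leukocyte markers only PTPRC had one, and of 3 endothelial markers PECAM1 at both times and TIE1 at 72 h. Of 3 luminal hormone receptor genes PRLR had peaks at both times and ESR1 at 6 h, and of 3 hepatocyte genes TTR had a weak one at 72 h. An accessible promoter does not show that a gene was expressed.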

How the data were processed

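ATAC-seq libraries of MCF10A cells were prepared by the Omni-ATAC protocol, with 2 replicates per condition. Per the methods and the submitters' processing notes, the authors trimmed reads (Trimmomatic 0.38), mapped them to GRCh38 (Bowtie2 2.4.5), removed duplicates (Picard) and mitochondrial reads (SAMtools 1.4.1), and called peaks with Genrich 0.5 on both replicates together. Blacklisted regions were removed. The deposited signal value of each peak is its AUC, which the authors did not scale between lists, and the deposited −log10 p belongs to its summit. Depth is unknown.

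Peaks were merged and annotated with GENCODE 44. Named were the 10 genes with the largest late and the 10 with the largest early excess, the 5 regions of largest and smallest ratio with an AUC of at least 2000, the 5 strongest regions of either list alone, the 2 highest and 2 lowest members of each list with that AUC, and 10 genes the study discusses. Other genes given as reaching 0.5, and RUNX1, SMAD7 and ACTB regions, were chosen after their values were seen. A few of these items are not reported here. Members and lists were chosen with earlier results of these data known. The procedure was tested on simulated data. Alternatives changed the minimum AUC, overlap, width, centring, list length, proximal limit, gene assignment, region statistic and motif window. Software was Python 3.11.15 with pandas 2.3.3, numpy 2.4.6 and scipy 1.17.1.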

Additional observations from a re-analysis of the deposited data

How the results depend on the processing

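With 1 list per condition there is no replicate spread, so differences of the size seen between settings cannot be called real, and read depth, which raises AUC and peak number, was not known for either list. No paired analysis was possible because both replicates of a condition share 1 list.

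Among named genes 514 of 560 values under an alternative stayed close to the reported one and 486 kept its sign, but on the AUC per base only 65 of 112 did. Among named regions 38 of 41 stayed close and all 41 kept the sign. On the AUC per base, late-higher regions numbered 1784 and early-higher 346, the distal gap was 0.10, the AP-1 difference 26.1 points, and genes with 3 or more late regions 208. Gene-level log2 ratios per base were -0.041 for MACROD2, -0.18 for FN1, -0.17 for CXCL1, 0.019 for OVOL2 and -0.069 for POSTN, all of the opposite sign. List medians per base were 0.037 for cytokines, -0.045 for basal keratins, 0.061 for matrix, 0.023 for collagens, 0.014 for integrins, 0.10 for proteases, 0.13 for cell-cycle and 0.019 for all genes. With a minimum AUC of 400, 4220 regions were in the 72 h list alone and 1160 in the 6 h list alone, and the gap was 0.18. With an overlap of at least 50%, 12394 regions were in the 6 h list alone, and the AP-1 and E-box differences were 13.3 and -8.56 points. The E-box difference was -22.6 points over whole regions. With lists of equal length the gap was 0.18, the genes with 3 or more early regions numbered 22 and the median of all genes was 0.025. With proximal defined as 1 kb the gap was 0.19. Centring on all shared regions gave 32 genes with 3 or more early regions and medians of -0.025 for SMAD, -0.10 for ERK feedback, -0.12 for junctions, 0.030 for integrins, 0.10 for proteases, -0.013 for YAP and TEAD, -0.15 for cell-cycle, -0.027 for glucocorticoid, -0.063 for sterol, -0.13 for ribosomal and -0.051 for all genes. With the nearest TSS of any gene the WNT median was -0.00012 and that of all genes 0.018. The cause of these shifts was not tested beyond the construction of each setting.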

Other observations

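Some late regions lay in stretches. Runs of 3 or more successive regions of the merged set that were all late numbered 146 of 3 regions, 37 of 4, 4 of 5, 4 of 6 and 1 of 7, whereas early runs numbered 3 of 3 regions and 1 of 4. Late regions were 8.07% and early regions 1.67% of all, so that runs of late regions are more frequent from their number alone, and whether they exceed it was not tested. The run of 7 spanned 247 kb at PPFIA2, which encodes a liprin scaffold protein (chr12:81811145-82058192), with a summed AUC of 1053 at 6 h and 5393 at 72 h. A run of 6 at SUGCT (chr7:40219964-40306947) went from 2134 to 5971, and another in a stretch of chromosome 4 without a protein-coding gene (chr4:96164769-96649922) from 1504 to 5867. The early run of 4 lay at AQP4 and KCTD1 (chr18:26756640-26765892) and went from 3410 to 378, and the one of 3 past the end of ACTB (chr7:5523082-5526798) from 4343 to 942.

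The share of late regions differed between chromosomes, from 3.12% of the regions of chromosome 19, which is dense in genes, to 10.6% of those of chromosome 4. The share of early regions varied less, from 1.202% on chromosome 13 to 2.37% on chromosome 20. The median centred log2 ratio of proximal shared regions stayed between -0.03 and 0.02 on every chromosome.

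After the regions past the ends of EGR1, FOS and ACTB had been seen, regions between genes were counted by whether they lay within 3 kb past the end of a protein-coding gene. This was so for 58 of 634 early regions (9.15%, 95% Wilson interval 7.14 to 11.6), 7.45% of stable, 3.29% of late and 5.97% of all such regions. Such a region can also lie at the promoter of a neighbouring gene, as at TGM1, where the AUC at 123 bp from the TSS was 3305 with solvent and 3336, 1888 and 1027 at the 3 times.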
